A study of Mus musculus with 71 samples.

Results

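The core circadian clock was examined through 10 genes, taken by symbol from gene tables of 37681 genes each. They were the 3 activators Arntl, Clock and Npas2, the 6 repressors Per1, Per2, Per3, Cry1, Cry2 and Nr1d1, and the output gene Dbp. All 10 were present in each of the 6 tables and passed the filter on low values in each, so none was lost to low expression. RNA-seq, which counts sequenced fragments of each gene's RNA, had been run on micro-punches of the nucleus accumbens (NAc), ventral tegmental area (VTA) and prefrontal cortex (PFC) of wild type C57BL/6 (C57BL/6J in the study's methods) adult mice. Mice had self-administered cocaine or, as controls, saline, and tissue was taken after 1 or 28 days of abstinence. These 12 groups held 6 libraries each, except VTA saline at 28 days with 5, which made 71 libraries. The mice were kept on a light-dark cycle and trained on food before daily sessions of intravenous self-administration. Both sexes were used, and neither the sex behind a library nor the hour of tissue collection, which bears on clock genes in particular, is given in the sources used here. The sources also do not say whether the 3 regions came from the same mice or whether a library was 1 mouse. The p-values therefore measure the spread between libraries, and the 3 regions may not be independent of each other.

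The circadian clock is a transcriptional feedback loop that runs in most cells, including neurons outside the suprachiasmatic nucleus. The proteins of Arntl (also called Bmal1) and of either Clock or its paralog Npas2 pair up and bind E-box sequences, and so switch on the Period (Per) and Cryptochrome (Cry) genes, Nr1d1 and Dbp. PER and CRY proteins then hold the activators back, Nr1d1 (Rev-Erb alpha) represses Arntl, and Dbp activates genes that carry a D-box, the Period genes among them. Transcripts of Arntl and of its targets therefore peak at opposite times of day. Per1 and Per2 are in addition induced by neuronal activity through CREB and by glucocorticoids, and Npas2 can take the place of Clock in the forebrain.

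Promoter sequences from RefSeq (GRCm38.p6, from 250 bases before to 50 after a start site) were matched to 9 of the members, with 13 start sites in all; Per2 had no entry. The motifs were searched on both strands. The E-box CACGTG, which the activators bind, lay in the promoters of Cry1 and Per1 and in 7.15% of all 32851 promoters. The D-box TTATGTAA, which Dbp binds, lay in that of Per3 and in 0.938% of all promoters. The stretches around these matches are shown because they tie members to each other, the activators' site in 2 repressors and the output gene's site in 1 more. The motif is in capitals, and each stretch reads 5′ to 3′ on the gene's strand, at chr10:85185055-85185174 (minus strand) for Cry1, chr11:69098723-69098848 (plus) for Per1 and chr4:151044756-151044915 (minus) for Per3.
Cry1: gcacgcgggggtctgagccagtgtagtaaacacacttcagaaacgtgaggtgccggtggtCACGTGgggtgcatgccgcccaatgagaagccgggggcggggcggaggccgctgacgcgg
Per1: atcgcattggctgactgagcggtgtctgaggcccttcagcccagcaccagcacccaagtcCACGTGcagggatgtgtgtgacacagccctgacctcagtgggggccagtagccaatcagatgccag
Per3: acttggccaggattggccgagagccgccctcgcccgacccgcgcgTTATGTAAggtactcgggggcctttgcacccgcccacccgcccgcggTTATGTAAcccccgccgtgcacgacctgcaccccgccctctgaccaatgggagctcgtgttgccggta
The E-box began 60 bases before the start site in Cry1 and 166 bases before it in Per1, and the 2 D-boxes of Per3 began 205 and 158 bases before it. The full cAMP response element TGACGTCA, the site of CREB, was in no member's window and in 1.79% of all promoters. Its shorter form TGACG was in Cry1, Cry2 and Per1 (4 of the 13 start sites) and in 20.8% of all promoters. The Rev-Erb site AGGTCA was in Arntl, Clock and Per1 (3 of the 13) and in 16.3%. A match is a description of letters and not evidence of binding.

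On mm9, the build of the tables, the genes lay on chr7 (Arntl, 120350979-120457636, and Dbp, 52960458-52965525), chr5 (Clock, 76639992-76733817), chr1 (Npas2, 39250576-39420079, and Per2, 93312561-93355907), chr11 (Per1, 68908719-68923462, and Nr1d1, 98629246-98636647), chr4 (Per3, 150377761-150418774), chr10 (Cry1, 84594447-84647799) and chr2 (Cry2, 92243803-92274200). The strand used in counting is not given in the sources used here. Nr1d1 overlaps Thra on the opposite strand by 1075 bases, Dbp overlaps Sphk2 by 689 and Cry2 overlaps the noncoding D930015M05Rik by 23417, so the levels of these 3 members may hold some reads of their neighbours.

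Libraries held between 20971967 and 49700932 reads on genes, the 24 VTA and PFC libraries at 1 day by way of reads recovered from RPKM. Several libraries stood apart by the markers of other tissue. In PFC saline library 4 at 28 days, 8 genes of striatal medium spiny neurons summed to 2622 CPM against 187 to 248 CPM in the other libraries of that table, and its 7 cortical excitatory genes had the lowest sum (1951 CPM against 2476 to 3013). In VTA cocaine library 6 at 1 day, 4 choroid plexus genes summed to 150 RPKM, against 60.6 RPKM in saline library 6 and 1.67 to 10.4 RPKM in the others. VTA saline library 5 at 28 days had the highest sums of microglial (817 CPM, others 314 to 501), oligodendrocyte (30469 CPM, others 10673 to 25672), astrocyte (2811 CPM, others 1049 to 2489) and glucocorticoid-induced genes (1212 CPM, others 580 to 905) of its table. The 7 cortical excitatory genes summed to 18.8 to 49.7 RPKM in VTA saline and 26.9 to 107 RPKM in VTA cocaine libraries at 1 day. Midbrain dopamine genes were present in all VTA libraries, with widely spread sums. At 1 day these ran from 662 to 1686 RPKM after saline and from 421 to 1027 RPKM after cocaine. At 28 days they ran from 1120 to 5579 CPM after saline and from 1673 to 5009 CPM after cocaine. The 5 genes taken as markers of the suprachiasmatic nucleus, the central clock, summed to 9.37 to 27.9 CPM in the NAc over both times. At 28 days they summed to 7.98 to 27.8 CPM in the VTA and 31.8 to 56.2 CPM in the PFC. Since the sums were highest in the PFC, this list is not read as a sign of suprachiasmatic tissue.

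The first question was where in these circuits the clock genes were expressed without cocaine. In saline mice at 28 days all 10 members were called lower in the VTA than in the NAc (edgeR, adjusted p under 0.05), where 62.5% of 17181 genes tested were called. The same 10 were called lower in the separate saline mice at 1 day, where 66% of 16430 genes were called. Npas2, the forebrain paralog of Clock, differed most. Per kilobase of gene length its level at 28 days was 20.7 CPM at the median of the NAc libraries (highest 25.5), 12.7 in the PFC (highest 17.5) and 1.44 in the VTA (highest 1.6). The VTA libraries were all far below the others, and PFC library 4, which held the striatal markers, was the PFC library nearest to the NAc range, which began at 18.9. The VTA level was 15.5-fold lower than in the NAc (log2 difference of -3.95, edgeR adjusted p = 6.23e-14) and 9.66-fold lower than in the PFC (adjusted p = 3.57e-13). At 1 day these folds were 15.1 and 9.6.

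**Figure D1:**
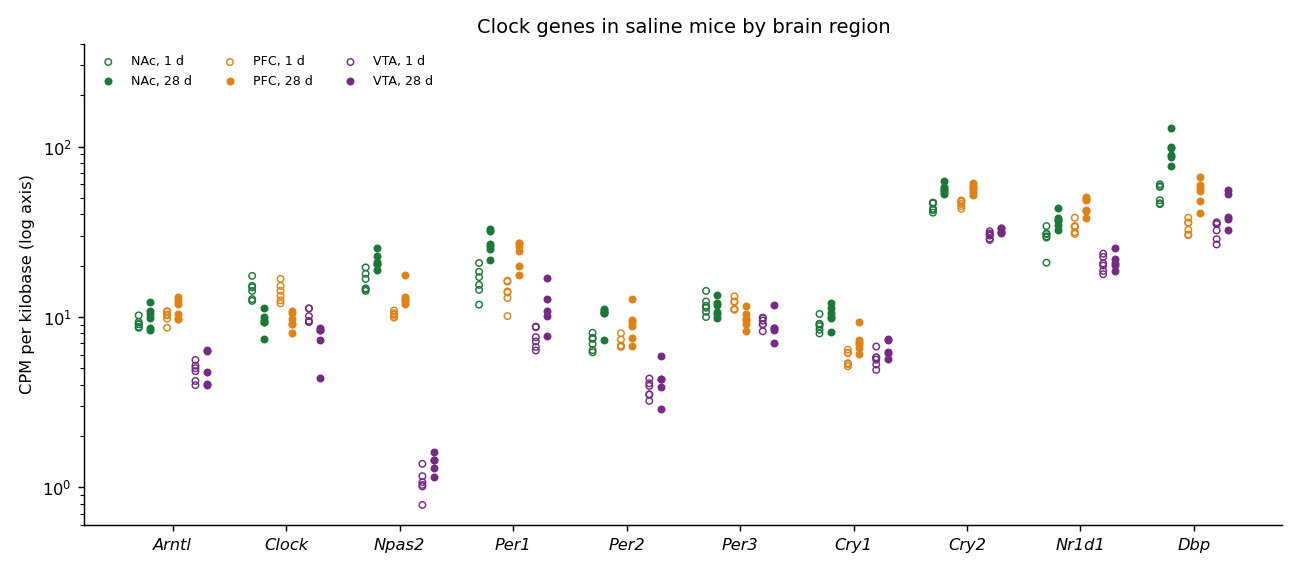
Levels of the 10 clock genes in saline mice, in CPM per kilobase of gene length on a log axis, with 1 point per library (open circles 1 day, filled circles 28 days) for NAc (green), PFC (orange) and VTA (purple). Npas2 lies between 15.7 and 20.7 at the NAc medians and near 1 in the VTA, and Dbp and Cry2 have the highest means in the NAc and VTA.

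The other members differed less between VTA and NAc. At 28 days the folds were 2.4 for Per2, 2.34 for Per1, 2.22 for Dbp and 1.97 for Arntl, and between 1.27 for Clock and 1.77 for Cry2 for the rest. Clock, the activator found in most tissues, was the least secure of these (adjusted p = 0.0414 with edgeR), and its call was lost when NAc library 2 or 3 or VTA library 1 or 5 was left out (adjusted p up to 0.0806). Between PFC and NAc fewer members differed, 4 of 10 at 28 days against a background of 40.7%, and 3 of 10 at 1 day against 40.9%. Npas2, Cry1 and Dbp were called lower in the PFC at both times, by 1.6, 1.43 and 1.77-fold at 28 days and by 1.58, 1.56 and 1.56-fold at 1 day. Nr1d1 was called higher in the PFC at 28 days only (1.22-fold, edgeR adjusted p = 0.0162), and at 1 day it was 1.15-fold higher with an adjusted p of 0.0891. Without PFC library 4, the log2 difference of Npas2 was -0.79 in place of -0.68 and that of Cry1 -0.62 in place of -0.51. Between VTA and PFC 7 members were called at 28 days and 8 at 1 day, all lower in the VTA, where 57.8% and 64.6% of all genes were called. Leaving out 1 library gave 6 to 8 at 28 days. Clock lost its call in 5 of 17 such fits (without VTA library 1 or 5 or PFC library 3, 5 or 6, edgeR adjusted p up to 0.0768), Dbp gained one in 3 (without VTA library 1 or 5 or PFC library 6) and Per3 in 1 (without VTA library 5). With all libraries Cry1 and Dbp passed at neither time, with log2 differences of -0.14 and -0.02 for Cry1 and -0.33 and -0.07 for Dbp, and Per3 passed at 1 day alone (-0.35, against -0.14 at 28 days).

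In the NAc and VTA Dbp and Cry2 had the highest mean levels per length at both times. In the PFC they did so at 28 days, while at 1 day Dbp (33.8, SD 3.25) and Nr1d1 (33.7, SD 2.62) could not be put in order. In the NAc at 28 days Dbp had a mean of 96.5 CPM per kilobase (SD 17.5), Cry2 56.6 (SD 3.64), Nr1d1 37 (SD 3.81) and Per1 27.3 (SD 4.28), and their neighbours in this order were further apart than their SDs. Npas2 followed with 21.5 (SD 2.32), and below it Per3, Cry1, Per2, Arntl and Clock lay between 9.48 and 11.3 and could not be put in order within their spread. In the VTA the bottom of the order was Npas2, at a mean of 1.38 (SD 0.171), with Per2 next at 4.25 (SD 1.09) and Arntl at 5.09 (SD 1.18). Levels at 1 and 28 days were not compared, because the tables of the 2 times were made with different gene boundaries. The gene lengths were those implied by the VTA values at 1 day and were used for both times. The order of the genes at 28 days rests on these lengths, and the SDs hold no error of them.

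The main question of the design was whether cocaine changed these genes. In bulk tissue, fewer cells of a type and less RNA per cell cannot be told apart. At an adjusted p under 0.05 none of the 10 was called in any of the 6 comparisons of cocaine with saline. Few genes of any kind were, at 0.0126% of 15878 genes in the NAc, 0.186% of 15042 in the VTA and 0.00693% of 14427 in the PFC at 1 day, and 0% of 16295, 16937 and 16340 at 28 days. Before adjustment the members with p under 0.05 numbered 3, 5 and 2 in the NAc, VTA and PFC at 1 day, all higher after cocaine, and 3, 0 and 3 at 28 days, all lower. The shares of all genes with an unadjusted p under 0.05 were 4.01%, 15.4% and 4.15% at 1 day and 6.76%, 11.5% and 5.66% at 28 days. By this looser rule the members that passed were repressors or Dbp, except Npas2 in the VTA at 1 day. DESeq2 called 1 member, Per2 in the NAc at 1 day, where it called 21 of 15878 genes. It called no member in the 3 count tables at 28 days. There it called 14 of 16295, 74 of 16937 and 2 of 16340 genes in the NAc, VTA and PFC. With edgeR on recovered reads no member was called in the VTA or PFC at 1 day.

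**Figure D2:**
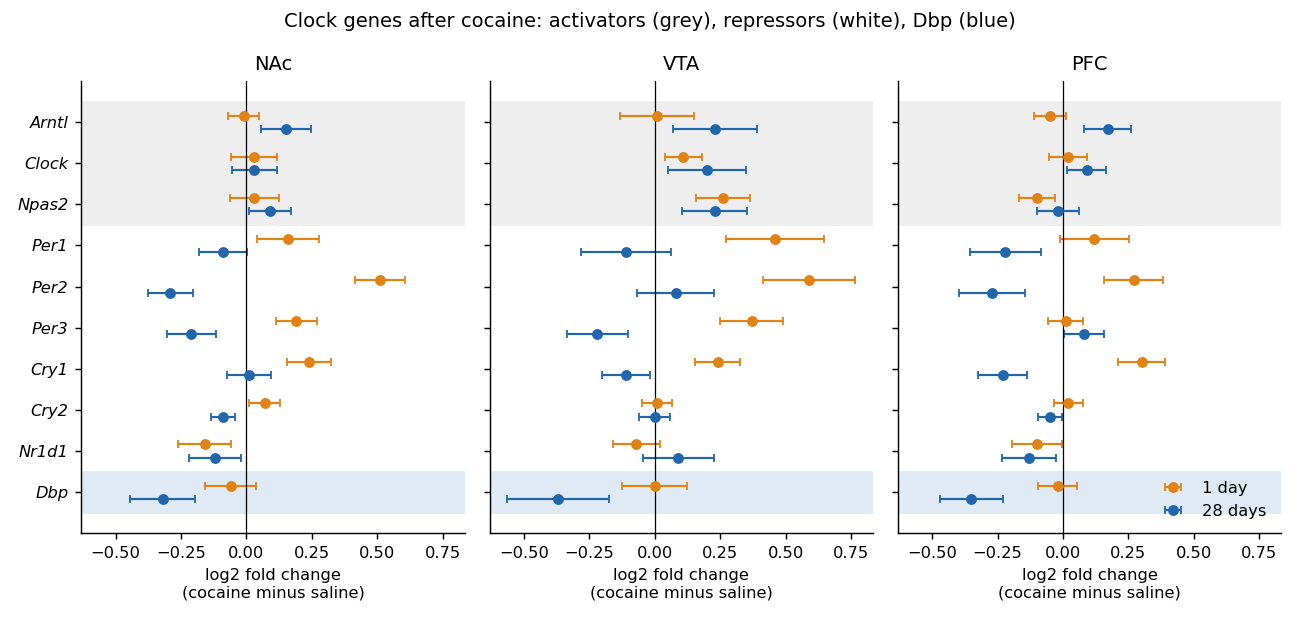
Log2 fold change of cocaine against saline (x axis, points with bars of 1 standard error) for the 10 clock genes in the NAc, VTA and PFC at 1 day (orange) and 28 days (blue), with activators shaded grey and Dbp light blue. Per2 sits at 0.51, 0.59 and 0.27 at 1 day and Dbp at -0.32, -0.37 and -0.35 at 28 days, while the activators lie between -0.10 and 0.26 throughout.

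Per2, a repressor of the loop that also responds to neuronal activity, had the largest difference of the 10 in the NAc and VTA at 1 day. Its lowest, median and highest levels in the NAc at 1 day were 35.8, 41.5 and 46.5 CPM after saline and 48.7, 57.1 and 70.9 CPM after cocaine. All 6 cocaine libraries lay above all 6 saline libraries, which 0.365% of the 15878 genes tested did in either direction and no other member did in any table. The log2 fold change was 0.51 (SE 0.095), with an adjusted p of 0.279 in edgeR and 0.00206 in DESeq2, so the call depended on the tool. The exact permutation test gave p = 0.00216, the smallest that 924 divisions allow for a two-sided test.

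Per2 in the VTA at 1 day ran from 3.29 through 3.96 to 4.46 RPKM after saline and from 3.92 through 5.58 to 9.09 RPKM after cocaine. There, 5 of the 6 cocaine libraries were above every saline library, and 1 lay within the saline range. This gave a log2 fold change of 0.59 (SE 0.177, limma adjusted p = 0.177, exact permutation p = 0.00866). It was 0.47 without cocaine library 6, the library with choroid plexus markers, and 0.43 with the cortical markers as a covariate (limma adjusted p = 0.885). The cell markers of this table moved with treatment. All 8 microglial genes were lower after cocaine, 7 of them with an unadjusted p under 0.05 (sum 214 to 303 RPKM after saline, 147 to 216 after cocaine). All 6 dopamine neuron genes tested were also lower, while 3 of 4 cortical genes tested were higher. Of the list taken for the suprachiasmatic nucleus, whose sums were highest in the PFC, both genes tested were higher. The sums over all 5 genes of that list, tested or not, did not overlap (2.64 to 6.28 RPKM after saline, 7.45 to 11.9 after cocaine). Apart from the cortical covariate, the part of these shifts in the clock genes was not tested. In the PFC at 1 day Per2 ran from 6.34 through 6.56 to 7.94 RPKM after saline and from 6.75 through 8.03 to 10.5 RPKM after cocaine. Of the cocaine libraries 3 were above the saline range and 3 within it, for a log2 fold change of 0.27 (SE 0.113, limma adjusted p = 0.918).

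At 28 days Per2 was on the other side of saline in the NAc. Its levels were 42.9, 61.5 and 64.5 CPM after saline (lowest, median, highest) and 42.7, 48.9 and 52.7 CPM after cocaine. All 6 cocaine libraries were below the saline mean of 59.1 CPM, but saline library 1, at 42.9 CPM, lay among them and apart from the other 5 saline libraries, which started at 60.9 CPM. Per2 differed by -0.29 on the log2 scale (SE 0.086, edgeR adjusted p = 0.592, exact permutation p = 0.013). Without saline library 1 it was -0.37 and passed (edgeR adjusted p = 0.033). In the PFC at 28 days Per2 ran from 38.2 through 50.7 to 72.2 CPM after saline and from 36.8 through 42.7 to 48 CPM after cocaine, with the highest value in saline library 4, the library with striatal markers. The log2 fold change of -0.27 (SE 0.126, edgeR adjusted p = 0.842) became -0.15 without it. All 8 striatal genes were lower after cocaine in this table, 7 of them with an unadjusted p under 0.05, and their sum was 191 to 2622 CPM after saline and 187 to 239 CPM after cocaine. For the VTA at 28 days, where saline libraries had 18.3, 24.3, 26.6, 26.8 and 36.6 CPM and cocaine libraries 23.2 to 32.5 CPM, the cocaine libraries all lay within the saline range and the log2 fold change was 0.08 (SE 0.147), or 0.23 without saline library 5.

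**Figure D3:**
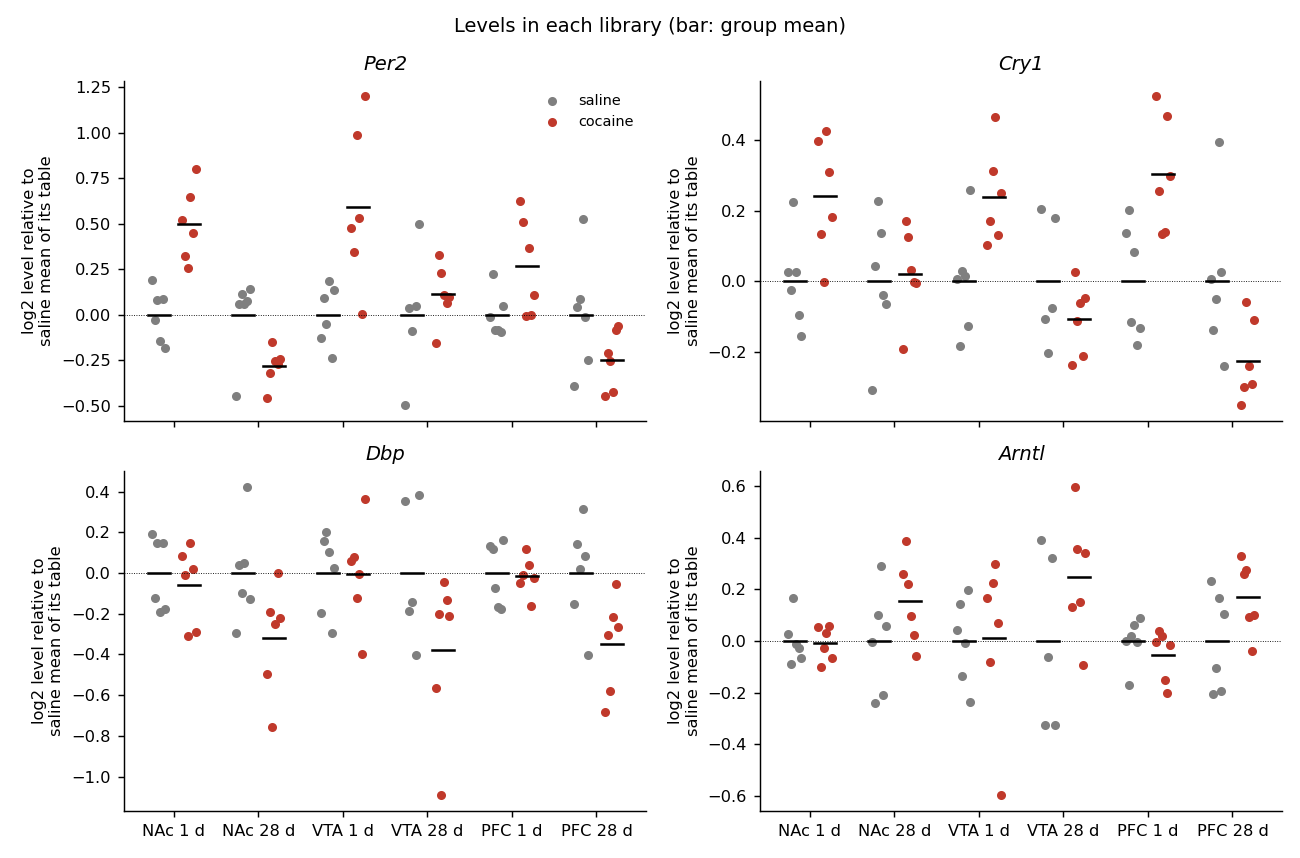
Levels of Per2, Cry1, Dbp and Arntl in each of the 71 libraries, as log2 differences from the saline mean of the same table (y axis), for saline (grey) and cocaine (red) in the 6 region and time tables, with bars at group means. The 6 NAc cocaine libraries at 1 day lie above all saline libraries for Per2, and at 28 days all cocaine libraries lie at or below the saline mean for Dbp.

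Cry1, the partner of the Period proteins, was the member with the smallest unadjusted p in the PFC at 1 day. There it ran from 4.86 through 5.47 to 6.36 RPKM after saline and from 6.06 through 6.7 to 7.97 RPKM after cocaine. There, 4 of 6 cocaine libraries were above the saline range. Cry1 differed by 0.30 on the log2 scale (SE 0.09, limma adjusted p = 0.918, exact permutation p = 0.013). In the NAc at 1 day it ran from 23.9 through 26.6 to 31.1 CPM after saline and from 26.6 through 31.6 to 35.8 CPM after cocaine. Again 3 cocaine libraries were above the saline range and 3 within it, for a log2 fold change of 0.24 (SE 0.085, edgeR adjusted p = 1). The VTA at 1 day also gave 0.24 (SE 0.085, limma adjusted p = 0.232), each of the 6 cocaine libraries exceeding the saline mean of 5.91 RPKM. At 28 days Cry1 in the PFC ran from 17.6 through 20.5 to 27.4 CPM after saline and from 16.3 through 17.3 to 20 CPM after cocaine. Here 4 cocaine libraries were below all saline libraries, and the log2 fold change was -0.23 (SE 0.094, edgeR adjusted p = 0.842). It was -0.14 without saline library 4, which held both the striatal markers and the highest Cry1. At 28 days Cry1 stood at 0.01 (SE 0.084) in the NAc and -0.11 (SE 0.091) in the VTA. Cry2, the other Cryptochrome, differed little at any time or place, between -0.09 and 0.07 on the log2 scale, with 2 standard errors on each side reaching at most from -0.18 to 0.19.

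Per1 and Per3, the other Period genes, were higher in the VTA at 1 day. Per1 ran from 6.72 through 7.58 to 9.31 RPKM after saline and from 7.18 through 10.2 to 17.5 RPKM after cocaine. Of the cocaine libraries 4 were above the saline range and 2 within it, for a log2 fold change of 0.46 (SE 0.187, limma adjusted p = 0.279). Per3, with the D-boxes printed above, ran from 8.41 through 9.66 to 10.5 RPKM after saline and from 10.2 through 12.1 to 18 RPKM after cocaine. All but 1 of the 6 cocaine libraries, the one at 10.2 RPKM, were above all saline libraries, for a log2 fold change of 0.37 (SE 0.119, limma adjusted p = 0.195, exact permutation p = 0.00649). In both genes the highest value was cocaine library 6, and without it the log2 fold changes were 0.32 and 0.27. With the cortical markers as a covariate they were 0.07 and 0.22 (limma adjusted p = 0.998 and 0.933). The Per3 level was also higher in the NAc at 1 day, by 0.19 (SE 0.078), and lower there at 28 days, by -0.21 (SE 0.094), neither past the adjusted threshold in edgeR. In the VTA at 28 days the log2 fold changes were -0.11 (SE 0.173) for Per1 and -0.22 (SE 0.117) for Per3, and without saline library 5, which had the high glial sums and was the highest in both at 84.2 and 75 CPM, they were 0.07 and -0.09. In the PFC Per3 was within 0.08 of saline on the log2 scale at both times.

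Nr1d1, the repressor that acts on Arntl, was the repressor that did not go with the others at 1 day. Its log2 fold changes were -0.16, -0.07 and -0.10 in the NAc, VTA and PFC at 1 day, and -0.12, 0.09 and -0.13 at 28 days, each less than 2 standard errors from 0.

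Dbp, the output gene, was near saline at 1 day, with log2 fold changes of -0.06, -0.00 and -0.02 in the NAc, VTA and PFC and standard errors from 0.075 to 0.125. At 28 days it was below the saline mean in all 6 cocaine libraries of each region. In the NAc it ran from 138 through 166 to 227 CPM after saline and from 100 through 143 to 169 CPM after cocaine. At the low end 2 cocaine libraries were below the whole saline range, with 4 within it, for a log2 fold change of -0.32 (SE 0.125, edgeR adjusted p = 0.69, exact permutation p = 0.0455). In the PFC it ran from 69.9 through 95.9 to 115 CPM after saline and from 57.6 through 76 to 89.2 CPM after cocaine, with 2 cocaine libraries below the saline range. Its log2 fold change there was -0.35 (SE 0.119, edgeR adjusted p = 0.842, exact permutation p = 0.0368), and -0.28 without saline library 4. Dbp in the 5 saline libraries of the VTA was at 61.5, 71.4, 73.7, 104 and 106 CPM, and the cocaine libraries ran from 38.1 through 70.5 to 78.8 CPM. The 2 highest saline libraries were above every cocaine library and the other 3 within their range. The VTA log2 fold change was -0.37 (SE 0.194, edgeR adjusted p = 0.465), -0.26 without saline library 5 and -0.73 with the cortical markers as a covariate. Dbp was the only member that was lower in all 3 regions at 28 days by more than 0.3 on the log2 scale, and none of these differences passed after adjustment.

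Cell markers also moved with treatment at 28 days. In the VTA all 8 microglial, all 7 oligodendrocyte and all 5 endothelial genes were lower after cocaine, with 2, 3 and 3 at an unadjusted p under 0.05. The 6 cortical genes tested there went both ways. At such a p 3 of them were lower and 1 was higher. The oligodendrocyte sum was 15362 to 30469 CPM after saline and 10673 to 19539 CPM after cocaine, and the endothelial sum 268 to 505 and 228 to 323 CPM. In the NAc all 7 oligodendrocyte, all 5 endothelial and all 7 cortical genes were lower, with 2, 2 and 0 at an unadjusted p under 0.05. The oligodendrocyte sum there was 6121 to 7143 CPM after saline and 5307 to 6601 CPM after cocaine. Apart from the cortical covariate in the VTA, their part in the 28-day levels of Dbp and the other members was not tested.

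Arntl, the activator that both Clock and Npas2 need as a partner, was within 0.05 of saline on the log2 scale at 1 day. In the VTA at 1 day Arntl had an SE of 0.141, and alternative fits gave it values from -0.01 to 0.26. At 28 days its log2 fold changes were 0.15 (SE 0.096), 0.23 (SE 0.162) and 0.17 (SE 0.088) in the NAc, VTA and PFC. In each region 5 of 6 cocaine libraries were above the saline mean. In the PFC, for example, Arntl ran from 27.2 through 31.5 to 36.9 CPM after saline and from 30.6 through 35.7 to 39.5 CPM after cocaine, with 3 cocaine libraries above the saline range (edgeR adjusted p = 0.842). Clock ranged from 0.02 to 0.20 over the 6 comparisons. Npas2 ranged from -0.10 to 0.26, the highest in the VTA at 1 day, where its level was lowest (1.12 RPKM ± 0.195 SD in 6 saline and 1.35 RPKM ± 0.117 SD in 6 cocaine libraries, limma adjusted p = 0.269).

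Activators and repressors were then set side by side. At 1 day the median log2 fold change of the 6 repressors was 0.18, 0.31 and 0.07 in the NAc, VTA and PFC, with 5 of 6 higher after cocaine in each region, Nr1d1 being the one lower. The median of the 3 activators was 0.03, 0.11 and -0.05. Over all genes tested the medians were -0.001, 0.030 and -0.011. At 28 days the order was turned, with repressors at -0.10, -0.05 and -0.18 and activators at 0.09, 0.23 and 0.09, against medians over all genes of 0.005, -0.030 and 0.000. Of the repressors 5, 3 and 5 were lower after cocaine at 28 days, and of the activators 3, 3 and 2 were higher. When each library was left out in turn, the repressor median stayed above 0 in all 3 regions at 1 day (0.12 to 0.22, 0.25 to 0.35 and 0.01 to 0.12) and below 0 in the NAc and PFC at 28 days (-0.15 to -0.07 and -0.23 to -0.12). In the VTA at 28 days it ran from -0.07 to 0.03, on both sides of 0. With the cortical markers as a covariate the order of the arms in the VTA at 1 day was turned, at 0.12 for repressors and 0.19 for activators, and at 28 days they stood at -0.06 and 0.45. These medians are descriptions of 10 genes that regulate each other, and no test was made of them.

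**Figure D4:**
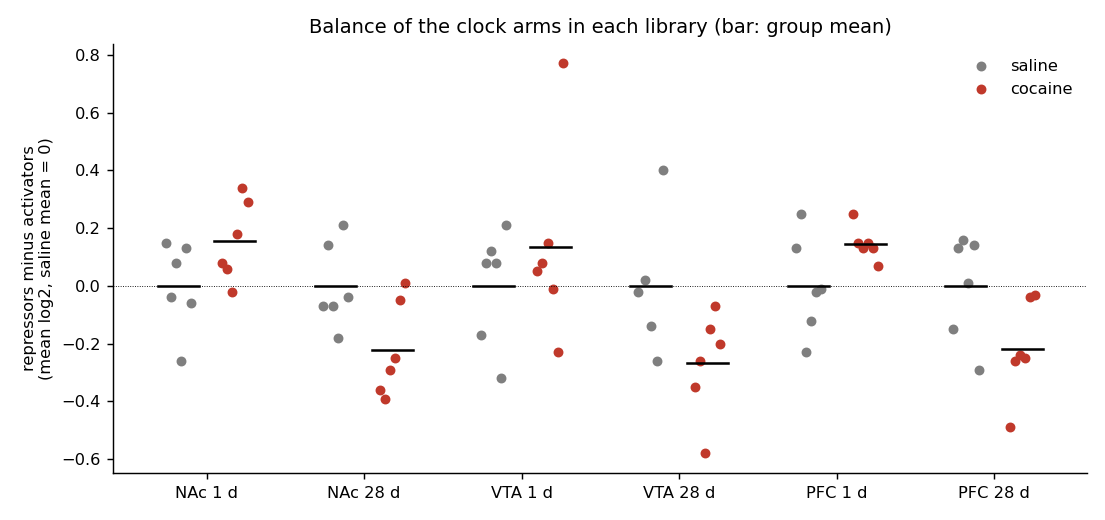
Mean log2 level of the 6 repressors minus that of the 3 activators in each library, with the saline mean of each table set to 0 (y axis), for saline (grey) and cocaine (red), with bars at group means. Cocaine groups average 0.15, 0.14 and 0.15 at 1 day and -0.22, -0.27 and -0.22 at 28 days in the NAc, VTA and PFC, and the groups overlap in every table. The VTA mean at 1 day leans on cocaine library 6 at 0.77, and the medians there are 0.07 for cocaine and 0.08 for saline.

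Library by library, the mean of the repressors minus that of the activators showed the same overlap. In the NAc it ran from -0.02 through 0.13 to 0.34 in cocaine libraries at 1 day and from -0.39 through -0.27 to 0.01 at 28 days, where saline libraries ran from -0.26 to 0.15 and from -0.18 to 0.21. In the PFC the 6 cocaine libraries at 1 day were tightly grouped from 0.07 to 0.25, inside a saline range of -0.23 to 0.25. In the VTA at 1 day 1 cocaine library, library 6, stood at 0.77 and the others at or below 0.15. The cocaine mean of 0.14 there leaned on library 6, and the medians were 0.07 after cocaine and 0.08 after saline.

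Whether the difference made by cocaine changed between 1 and 28 days was tested as an interaction of treatment and time within each region. In the NAc, Per2 was called (log2 interaction of -0.79, SE 0.138, edgeR adjusted p = 0.0381, DESeq2 adjusted p = 0.000238), one of only 3 genes among 16612 (0.0181%), where 5.27% of genes had an unadjusted p under 0.05. This value is the 28-day fold change minus the 1-day one, and it rests on the 24 NAc libraries described above. Its size held between -0.86 and -0.72 when each library was left out, but the adjusted p stayed under 0.05 in only 6 of these 24 fits and was at most 0.109. Per3 was next (-0.39, unadjusted p = 0.00632 in edgeR, adjusted p = 0.832). The interaction was called for no other member in the NAc, and those of the activators were between 0.02 and 0.17.

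The VTA and PFC interactions used reads recovered from the RPKM tables for the 1-day side. In the VTA no gene of 17197 was called (0%), and 15.6% had an unadjusted p under 0.05. Among these were 4 members, Per3 (-0.58), Per1 (-0.59), Per2 (-0.53) and Cry1 (-0.31), all with edgeR adjusted p between 0.168 and 0.299. In the PFC 0.00604% of 16565 genes were called and 4.85% had an unadjusted p under 0.05. The 3 members that did were Cry1 (-0.55, SE 0.13), Per2 (-0.56, SE 0.177) and Dbp (-0.34, SE 0.146), with edgeR adjusted p of 0.511, 0.945 and 0.995. Per2 thus had an interaction of the same sign in all 3 regions, from -0.79 to -0.53, and passed the adjusted threshold in the NAc. Libraries were left out in turn for the NAc interaction only. In the other regions the 28-day fold changes of Per2 moved with single libraries. They went from -0.27 to -0.15 in the PFC without saline library 4, and from 0.08 to 0.23 in the VTA without saline library 5. Whether the interaction differed between regions was not tested. The time points also differ in cohort and in how the tables were made, and these cannot be told apart from time in the levels. The interaction compares cocaine with saline of the same time point. A cocaine effect that differed between the cohorts still cannot be told apart from one that changed with time.

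The last question was whether the members kept the relations of a clock among single libraries, once group means were removed. In all, 5 pairs were tested in each of the 6 tables, which made 30 tests. Per1 and Per2, the pair of activity-responsive Period genes, correlated positively in every table, with Pearson's r from 0.65 to 0.86. The relation passed adjustment in the PFC at 28 days (r = 0.79 over 12 libraries, permutation p = 0.00138, adjusted p = 0.0414; Spearman's rho = 0.82, permutation p = 0.00225, adjusted p = 0.0675), and r was 0.77 without the 2 libraries farthest from the Per1 median. The VTA at 28 days had the highest r, 0.86 (permutation p = 0.00997, adjusted p = 0.0598; rho = 0.53, permutation p = 0.134, adjusted p = 0.369), and 0.53 without the 2 farthest libraries, so that it rested in part on those. Per3 and Dbp, the D-box carrier and the D-box factor, had r from 0.23 to 0.80, highest in the VTA at 1 day (permutation p = 0.00625, adjusted p = 0.051; rho = 0.73, permutation p = 0.0115, adjusted p = 0.115), where r was 0.56 without the 2 farthest libraries.

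Arntl and Dbp, whose transcripts peak at opposite times of day, had no common sign. Their r was -0.40, -0.59, -0.14 and -0.55 in the NAc at 28 days, VTA at 1 and 28 days and PFC at 28 days, but 0.57 in the NAc and 0.06 in the PFC at 1 day, and none passed adjustment (adjusted permutation p of 0.206 or more). Neither Arntl and Per2 (-0.47 to 0.29) nor Arntl and Npas2 (0.14 to 0.52) passed in any table, with adjusted permutation p of 0.23 or more.

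**Figure D5:**
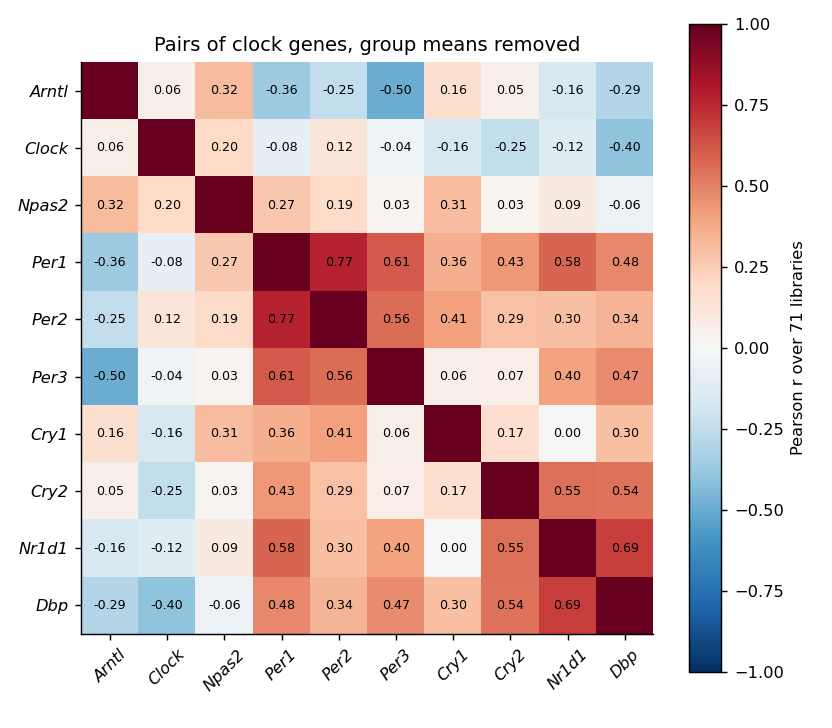
Pearson's r between each pair of the 10 clock genes over 71 libraries, on log2 CPM with the mean of each group removed (colour from blue at -1 to red at 1, values printed). Within the block of Per, Cry, Nr1d1 and Dbp every r is 0.00 or above, with a highest r of 0.77, while Arntl with Per3 is the lowest pair at -0.50.

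Over all 71 libraries, with group means removed and as a description, the 21 pairs among repressors and Dbp all had r of 0.00 or above (median 0.41). The highest were Per1 with Per2 (0.77), Nr1d1 with Dbp (0.69) and Per1 with Per3 (0.61). The 21 pairs of an activator with a repressor or Dbp were on both sides of 0, with 12 negative (median -0.06), and Arntl with Per3 (-0.50) and Clock with Dbp (-0.40) were the lowest. The 3 pairs of activators had r from 0.06 to 0.32. Libraries of a group share tissue punches of differing makeup, which this measure also reads.

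Among the 13807 other genes tested in all tables, those most like Dbp by this measure were Ciart (r = 0.71, listed as Gm129), Erf (0.65), Tef (0.63), Rps6ka4 (0.63) and Ldb1 (0.62). Ciart is a repressor of the clock and Tef is the D-box binding paralog of Dbp, and both were in the list of clock-linked genes below. Those most like Arntl were Gabra2 (0.75), Dgkb (0.71), Lrrtm1 (0.63), 5330417C22Rik (0.63) and Zfr (0.61), and none of these was in that list.

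A list of 20 further clock-linked genes, which holds the other D-box factors and the second Rev-Erb among others, gave no call in any table after adjustment. At 1 day 16, 15 and 13 of the 20 were higher after cocaine in the NAc, VTA and PFC, and 0, 6 and 3 of these had an unadjusted p under 0.05 with none lower. Over all genes 7855 of 15878, 8865 of 15042 and 6546 of 14427 were higher, and 438, 1677 and 237 of them had an unadjusted p under 0.05. At 28 days 5, 10 and 9 were higher, and 5, 5 and 4 were lower with an unadjusted p under 0.05, against 0, 2 and 0 higher. Over all genes 8473 of 16295, 7308 of 16937 and 8190 of 16340 were higher at 28 days, and 558, 1082 and 485 were lower with an unadjusted p under 0.05. For each table up to 2 genes with the smallest p are given. In the NAc at 1 day these were Tef (log2 fold change of 0.12, SE 0.0643) and Ciart (0.17, SE 0.093), and at 28 days Bhlhe41, a repressor that competes for E-boxes (-0.24, SE 0.076), and Tef (-0.17, SE 0.0635). The VTA had Nfil3, a repressor that binds D-boxes (0.25, SE 0.0922), and Usp2, a deubiquitinase with circadian expression (0.34, SE 0.124), at 1 day. At 28 days Bhlhe41 was at -0.30 (SE 0.0921) in the VTA. The PFC had Bhlhe40 (0.19, SE 0.0561) and its paralog Bhlhe41 (0.18, SE 0.0665) at 1 day, and Bhlhe41 (-0.31, SE 0.105) at 28 days. Bhlhe41 was thus below saline in all 3 regions at 28 days, and each of these values had an adjusted p of 0.238 or more in edgeR or limma.

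Since Per1 and Per2 are also induced by glucocorticoids and by neuronal activity, lists of such genes were read beside them. These lists were chosen with earlier results of these data known. Of 15 glucocorticoid-induced genes, 13, 13 and 14 were higher after cocaine at 1 day in the NAc, VTA and PFC, with median log2 fold changes of 0.22, 0.61 and 0.33. Over all genes 7855 of 15878, 8865 of 15042 and 6546 of 14427 were higher, and 2, 28 and 1 were called. The listed genes that passed adjustment were Hif3a and Plin4 in the NAc and Plin4 in the VTA and in the PFC, all higher. Hif3a, a hypoxia-inducible factor subunit, went from 7.14 CPM ± 0.986 SD to 15.1 CPM ± 2.68 SD. Plin4, a lipid droplet protein, went from 2.93 CPM ± 0.831 SD in the 6 saline to 17.3 CPM ± 11.3 SD in the 6 cocaine libraries of the NAc (log2 fold change of 2.57, SE 0.34), with 2.14 in the VTA and 2.17 in the PFC. At 28 days 1, 1 and 3 of the 15 were higher and none was called. Over all genes 8473 of 16295, 7308 of 16937 and 8190 of 16340 were higher at that time. Of the immediate early genes tested, 13 of 14, 10 of 10 and 14 of 14 were higher at 1 day, and 9, 6 and 5 had an unadjusted p under 0.05, but none passed adjustment. Of all genes 4.01%, 15.4% and 4.15% had such a p, and in the VTA 8865 of 15042 were higher. The 2 with the smallest p were Nr4a3 (0.82, SE 0.179) and Fos (0.95, SE 0.267) in the NAc, Nr4a3 (0.96, SE 0.244) and Fosl2 (0.90, SE 0.299) in the VTA, and Fos (0.74, SE 0.236) and Egr2 (0.93, SE 0.339) in the PFC. At 28 days 13 of 14, 3 of 13 and 12 of 14 immediate early genes were higher, with medians of 0.14, -0.12 and 0.28, where Per2 stood at -0.29, 0.08 and -0.27. The part of either list in the levels of Per1 and Per2 was not tested.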

How the data were processed

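RNA-seq was measured in 71 libraries. Per the labels and the study's methods, the authors aligned reads with STAR 2.4.1d to mm9. The deposited tables hold raw read counts per gene for the NAc at 1 day and for all regions at 28 days, and for the VTA and PFC at 1 day RPKM values that the authors computed. Columns with the authors' fold changes and p-values were not used, nor were 30 columns of per-library values that match no labelled sample. The 28-day columns name a group and not a labelled sample. The strand setting of the counting is not given in the sources used here.

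Counts were tested with edgeR 4.0.16 (quasi-likelihood, TMM, filterByExpr with a minimum count of 10), and CPM are for display. RPKM were tested with limma 3.58.1 on log2(RPKM + 0.1) for genes with a mean of 0.5 or more, so that fold changes of low genes are understated. Reads recovered from RPKM were whole for 100% of genes with reads (tolerance 1e-05). The search took the smallest whole numbers that fit, so this share is no separate check of the reads. The gene lengths they imply were whole for 8601 of 23806 genes in the VTA and 130 of 23353 in the PFC. On the recovered reads edgeR called 55 genes in the VTA and 1 in the PFC. Recovered reads served for the interactions and the 1-day comparison of regions. DESeq2 1.42.0 was an alternative. P-values were adjusted over all genes (Benjamini-Hochberg) and called under 0.05. Standard errors of edgeR fits were derived from the fold change and its F statistic, and the single-gene exact permutation tests used log2 levels. The fits were tested on simulated data. No pair of libraries of the same group agreed within counting noise (chi-square per degree of freedom of 4.91 or more in 175 pairs). Library totals were 20971967 to 49700932 reads, and precision is given as the spread between libraries.

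The members and gene lists were chosen with earlier results of these data known. All 10 members were reported in each table, for other lists the genes that passed or else the 2 with the smallest p (some are not reported here), and for Arntl and Dbp the 5 most correlated genes. Alternatives were no filter, DESeq2, its size factors, a pseudocount of 1, recovered reads, a threshold of 0.25, a replicate block, a cortical marker covariate and leaving out each library. The covariate and left-out libraries for the arm medians were chosen after seeing the data. Motifs were searched with Python 3.11.15 in RefSeq promoters.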

Additional observations from a re-analysis of the deposited data

Results flagged for a closer look

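Of 120 groups of 4 to 10 libraries, 7 had a highest or lowest library far from its neighbours by Dixon's test, and chance gives about 1 in 20. Per2 in NAc saline library 1 at 28 days was at 42.9 CPM, with the next at 60.9 CPM. In PFC saline library 4 at 28 days, Npas2 was at 71.9 CPM (next 53.1) and Cry1 at 27.4 CPM (next 21.2). Npas2 in PFC cocaine library 6 at 28 days was at 50.2 CPM (next 53.9). Nr1d1 in NAc saline library 4 at 1 day was at 56 CPM (next 78.8), and Clock in NAc cocaine library 5 at 1 day at 104 CPM (next 124). Per3 in VTA cocaine library 6 at 1 day was at 18 RPKM (next 12.7).

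The difference between cocaine and saline differed between 28 days and 1 day at an unadjusted p under 0.05 in 9 of 30 tests with edgeR. In the NAc these were Per2 (-0.79, adjusted p = 0.0381) and Per3 (-0.39, adjusted p = 0.832). In the VTA they were Per1 (-0.59), Per3 (-0.58), Per2 (-0.53) and Cry1 (-0.31), and in the PFC Per2 (-0.56), Cry1 (-0.55) and Dbp (-0.34), all as log2 differences and none past adjustment.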

How the results depend on the processing

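Of 1800 alternative values for 100 single-gene results, 1698 kept their direction and side of the threshold, 68 changed sign, 27 lost a call and 7 gained one. Of 10 members, DESeq2 called 1 in the NAc at 1 day in place of 0, where it called 21 of 15878 genes in place of 2. An adjusted p under 0.25 called 3 members in the VTA at 1 day in place of 0. The share of all genes under that cutoff is not given here, and 15.4% of 15042 genes there had an unadjusted p under 0.05. Leaving out each library gave 0 to 1 members in the NAc at 28 days (1 without saline library 1) and 0 to 1 for the NAc interaction. The causes were not tested.

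Recovered reads gave -0.01 for Arntl and -0.03 for Cry2 in the VTA at 1 day. The cortical covariate gave 0.10 for Per1, -0.11 for Cry2 and -0.01 for Nr1d1 in the VTA at 28 days. Leaving out each library turned the sign of log2 values that lay between -0.11 and 0.08. In the NAc at 1 day they ran from -0.03 to 0.03 (Arntl) and -0.01 to 0.09 (Clock and Npas2), and at 28 days from -0.03 to 0.08 (Clock) and -0.04 to 0.06 (Cry1). In the VTA at 1 day they ran from -0.04 to 0.14 (Arntl), -0.02 to 0.04 (Cry2) and -0.08 to 0.07 (Dbp), and at 28 days from -0.21 to 0.07 (Per1), -0.02 to 0.23 (Per2) and -0.02 to 0.03 (Cry2). In the PFC at 1 day they ran from -0.01 to 0.07 (Clock), -0.02 to 0.04 (Per3), -0.00 to 0.05 (Cry2) and -0.05 to 0.02 (Dbp), and at 28 days from -0.05 to 0.07 (Npas2). The NAc interaction ran from -0.05 to 0.07 for Clock and -0.01 to 0.12 for Nr1d1, and the PFC against NAc difference from -0.05 to 0.05 for Clock and -0.04 to 0.02 for Cry2.

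With the replicate block at 1 day, 0 members were called in each region, as without it, though 13 in place of 28 of all genes were called in the VTA, and Per2 was 0.50 in the NAc (edgeR adjusted p = 0.868). The numbers share no stated animal: same-numbered cocaine and saline libraries had deviations correlated from -0.54 to 0.65 in the NAc, -0.33 to 0.50 in the VTA and -0.20 to 0.13 in the PFC, with 2, 2 and 0 of 6 best matched to their own number. No block was fitted at 28 days, where the column numbers match no numbers of the labels. Depth and the 5 or 6 libraries a group both limit precision, and their shares were not compared.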
